A study of Arabidopsis thaliana with 6 samples.

Results

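The 41 genes described here encode the protein machinery, other than ribosomal proteins, that lets plastids and mitochondria translate their own messages: 18 aminoacyl-tRNA synthetases, 4 initiation factors, 10 elongation factors and related GTPases, 4 recycling and release factors and 5 enzymes that trim the start of new proteins. They were chosen by their locus identifiers, and 41 of 41 were found among the 33532 identifiers of the table. All 41 had a mean of at least 1 FPKM (fragments scaled to transcript length and to the library's total) over the 6 libraries and were tested. Their transcripts were measured by RNA sequencing of Arabidopsis thaliana seedlings, Col-0 wild type in both groups, with no transgene or mutation. The control group, with 3 libraries, was raised on 1/2 MS plates over 10 days, and the doxycycline group, also with 3, over 10 days on plates that held 5 µg/mL doxycycline as well. The labels do not say how many seedlings made up a library or whether plates were separate, so the p-values measure only the spread between these libraries. The question, from the series title, is how seedling transcripts respond when mitochondrial translation is impaired.

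Plastids and mitochondria descend from bacteria and keep bacterial-type ribosomes, which doxycycline, a tetracycline, blocks. Nearly all proteins that work with these ribosomes are encoded in the nucleus and imported. Aminoacyl-tRNA synthetases load each tRNA with its amino acid, and many of those in Arabidopsis organelles are sent to both plastids and mitochondria from a single gene. Initiation factors place the ribosome on the message, EF-Tu delivers loaded tRNAs with EF-Ts as its recharging partner, EF-G moves the ribosome along, and release and recycling factors free the product and the ribosome. Peptide deformylase and then methionine aminopeptidase remove the formyl group and the first methionine.

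The control libraries differed among themselves, and the library labelled control 1 stood apart from the other controls. Across the genes tested, log2(FPKM + 1) in control 1 correlated with the doxycycline libraries at r = 0.960 to 0.964 and with controls 2 and 3 at 0.831 and 0.867, as a description. Whether that library carries the right label cannot be told from these data, so each comparison with control 1 is a comparison with the library of that label. In the median gene the highest control library was 2.02 times the lowest, against 1.23 times for doxycycline libraries, and among the members these medians were 1.33 and 1.22 times. The summed level of 12 green shoot markers was 104800, 26240 and 46240 FPKM in controls 1 to 3 and 90080 to 92690 FPKM under doxycycline. That of 12 root markers was 20.95, 122.4 and 135.7 FPKM in the controls and 24.3 to 36.0 FPKM under doxycycline. For 8 dividing cell markers the sum was 35.3, 70.0 and 29.2 FPKM in the controls and 42.0 to 49.0 FPKM under doxycycline, so there control 2 alone stood high. Of the 12 green markers 2 lay above and 1 below all controls, and of the 9 root markers tested 0 lay above and 1 below. No marker was at 0 in every library. Controls 2 and 3 were both below control 1 and every doxycycline library in 7 of the 12 green markers and both above them in 1, RBCS1B, for a small subunit of Rubisco. In 9 of the 12 root markers both were above and in 0 below. The green sum is carried by the most abundant light-harvesting genes, such as CAB1 at 38900 FPKM in control 1. A large part of the root sum is THAS1, for thalianol synthase, at 59.2 and 57.0 FPKM in controls 2 and 3. RBCS1B, CAB1 and THAS1 are named after their values were seen. In bulk tissue, fewer cells of a type and less RNA per cell cannot be told apart, and the part of tissue make-up in the differences below was not tested.

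Of the 41 genes, 22 stood higher in every doxycycline library than in every control, 2 stood lower in every one and 17 overlapped. Over all 19035 genes tested, 9.59% lay higher without overlap and 25.7% lower, so the members' balance was opposite to that of the table. The median log2 difference was 0.29 over the 41 members and -0.29 over all genes tested. With limma, a linear model with variances moderated across genes, fitted to log2(FPKM + 1), 0 members had an adjusted p (Benjamini-Hochberg over all genes) under 0.05, as did 0.0% of the table. The lowest adjusted p, shared by 6 of the members, was 0.121. Unadjusted, a p under 0.05 was reached by 17 members that lay higher, against 6.83% of all genes, and by 1 that lay lower, against 18.8%. Against control 1, whose green and root sums lay near those of doxycycline, every doxycycline library was higher in 37 of 41 members and lower in 3, where 37.0% and 36.9% of all genes did so.

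Leaving out control 1 gave 16 members called higher (9.77% of all genes) and 4 called lower (35.6%), and the number higher without overlap was still 22 (15.9%), with 8 lower (53.0%). With control 1 as the only control, assumed to vary like the doxycycline libraries, 11 members were called higher (6.78%) and 0 lower (4.75%). The median gene moved from -0.29 on the deposited scale to 0.0012 after median-of-ratios scaling. On that scale 28 members stood higher (18.0% of genes) and 1 lower (17.2%), and the members' median was 0.62. Quantile normalization gave 26 higher (17.2%) and 1 lower (16.7%). Leaving out another library gave 22 higher without doxycycline 1 (10.5%) or 2 (11.4%), 24 without control 2 (15.9%) or 3 (11.9%) and 26 without doxycycline 3 (11.1%). The members lower were then 2 or 3, where 28.0% to 32.2% of all genes were, with 28.1% for each of the first 2 doxycycline libraries and 29.5% for control 3. Without control 3 the adjusted test called 2 genes, both lower (0.0105%) and neither a member. Of the 24 separated members 9 overlap a neighbouring gene, and reads in such stretches cannot be assigned with certainty, as strand handling is not given in the sources used here.

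**Figure D1:**
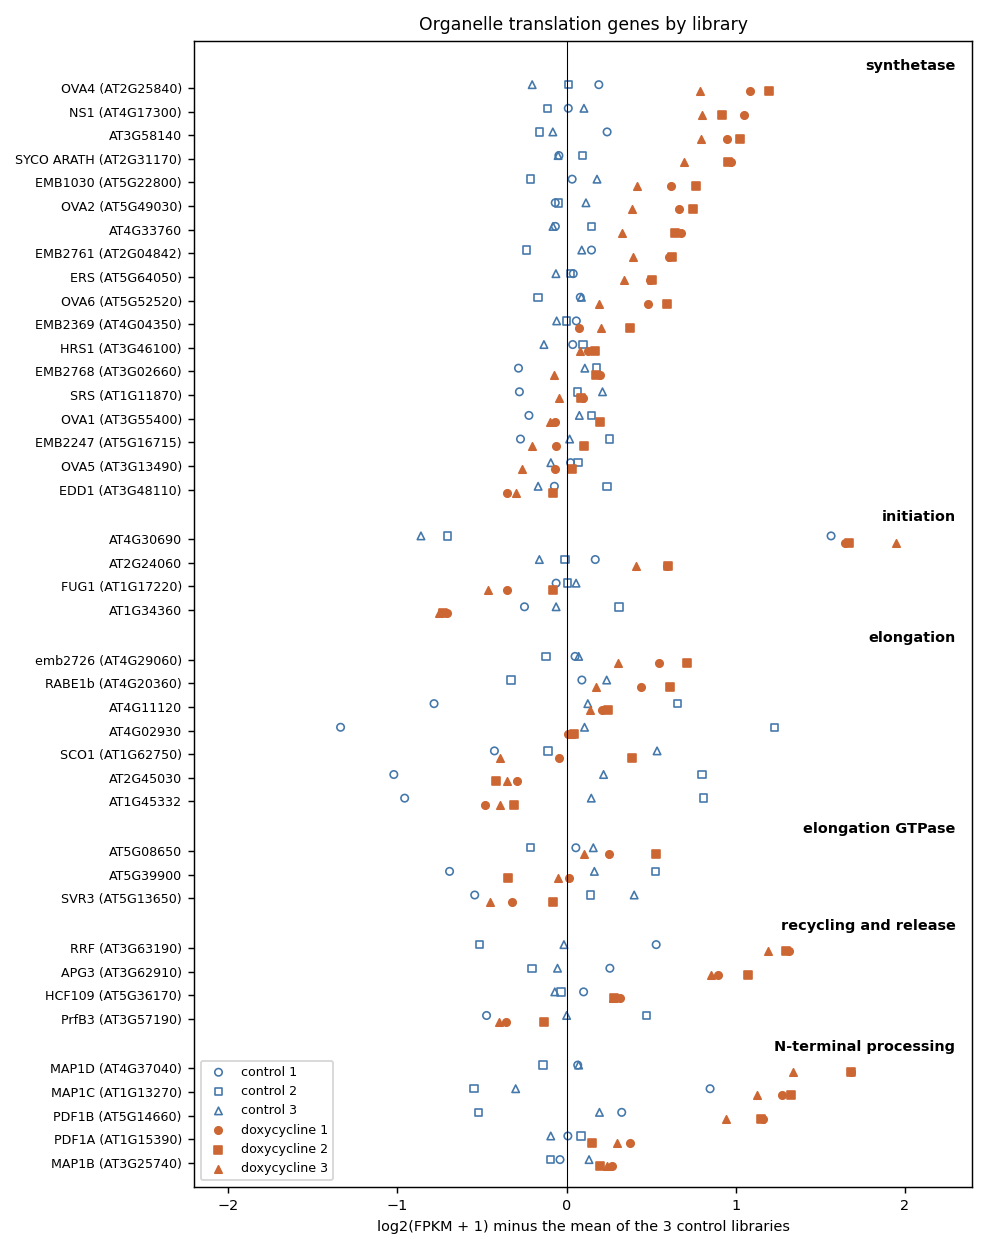
Each row is 1 of the 41 genes, grouped by role, and each point is a library, plotted as log2(FPKM + 1) minus the mean of the 3 controls (open blue, control; filled orange, doxycycline). In 22 rows all filled points lie to the right of all open ones, in 2 rows to the left, and the mitochondrial elongation genes show the widest scatter of controls.

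Promoter sequences are shown for 3 of the members with the widest distances between groups (MAP1D for a methionine aminopeptidase, NS1 for the asparagine synthetase and PDF1B for a peptide deformylase) and for the genes AT4G30690 and AT1G34360 of initiation factor IF3, which lay in opposite directions, since they allow the upstream regions of genes that stood high together to be read side by side. They are the bases before the annotated gene start, up to 250 and free of other annotated genes, from the RefSeq genome and annotation of build TAIR10.1 (the submitters name TAIR10), with matched motifs in capitals. The motifs searched on both strands were the site II elements TGGGCC and TGGGCT, found before many plant genes for organelle and ribosomal proteins, the telo-box AAACCCTA, the G-box CACGTG, the I-box GATAAG and the mitochondrial dysfunction motif, by which NAC factors act in the mitochondrial stress response.
MAP1D, chr4:17454850-17455099, plus strand: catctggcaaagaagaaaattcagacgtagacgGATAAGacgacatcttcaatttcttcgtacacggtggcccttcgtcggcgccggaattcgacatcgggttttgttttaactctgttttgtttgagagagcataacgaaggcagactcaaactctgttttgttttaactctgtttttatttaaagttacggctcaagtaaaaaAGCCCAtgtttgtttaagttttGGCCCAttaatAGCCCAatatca
NS1, chr4:9681098-9681347, plus strand: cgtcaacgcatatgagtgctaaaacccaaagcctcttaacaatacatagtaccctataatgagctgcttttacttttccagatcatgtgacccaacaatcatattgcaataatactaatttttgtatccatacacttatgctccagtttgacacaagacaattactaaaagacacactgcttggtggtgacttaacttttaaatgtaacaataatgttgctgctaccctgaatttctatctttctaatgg
PDF1B, chr5:4728747-4728946, minus strand: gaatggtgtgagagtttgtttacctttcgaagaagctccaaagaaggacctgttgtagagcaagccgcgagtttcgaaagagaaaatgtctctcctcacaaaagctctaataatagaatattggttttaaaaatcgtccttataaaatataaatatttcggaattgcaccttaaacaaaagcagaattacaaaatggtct
AT4G30690, chr4:14960344-14960593, plus strand: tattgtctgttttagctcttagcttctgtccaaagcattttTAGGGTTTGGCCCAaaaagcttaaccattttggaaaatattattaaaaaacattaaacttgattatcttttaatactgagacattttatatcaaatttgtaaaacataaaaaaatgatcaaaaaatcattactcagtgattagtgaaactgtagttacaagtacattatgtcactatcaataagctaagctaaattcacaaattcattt
AT1G34360, chr1:12542546-12542795, plus strand: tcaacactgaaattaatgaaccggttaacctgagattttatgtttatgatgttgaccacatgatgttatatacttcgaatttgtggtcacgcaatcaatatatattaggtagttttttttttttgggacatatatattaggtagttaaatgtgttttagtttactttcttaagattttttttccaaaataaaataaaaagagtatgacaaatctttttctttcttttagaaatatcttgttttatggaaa

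MAP1D held 3 site II elements, the nearest beginning 12 bases before the gene start, and also an I-box. AT4G30690 held a telo-box directly followed by a site II element that begins 201 bases before the start. NS1, PDF1B and AT1G34360 held none of the motifs in the bases shown. Over the full 250 bases before the start, a site II element of either form was found in 17 of 41 members (41.5%), in 9 of the 22 that stood higher and in 8 of the other 19. Of 27443 protein-coding genes 19.2% held one, and of the 18369 of them that were tested 22.65%. In the cytosolic list 8 of the 24 genes held one. The form TGGGCC was in 8 of the 22 and 2 of the 19 (16.85% of those tested), and TGGGCT in 7 of each (14.39%). The I-box was in 3 of the 22 and 7 of the 19 (12.3% of all), the telo-box in 3 of 41 members (4.49%) and the G-box in 2 of 41 (6.49%). The mitochondrial dysfunction motif was in 0 of 41 and in 328 of the 27443 (1.2%), a share so low that 0 of 41 says little. A match is a description of letters in this window and does not show that a factor binds there.

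Among the synthetases, 11 of 18 stood higher without overlap (9.59% of all genes tested), 0 lower (25.7%), and 7 overlapped. The largest difference was that of OVA4 (AT2G25840), the tryptophan enzyme gene. OVA4 stood at 25.2, 22.2 and 19.0 FPKM across controls 1 to 3 and at 47.8, 51.7 and 38.8 FPKM in doxycycline libraries 1 to 3 (log2 difference 1.03, SE 0.195, adjusted p = 0.121). Each doxycycline library was thus at least 1.5 times the highest control. NS1 (AT4G17300), for the asparagine enzyme, had the widest distance between the groups among synthetases, with 21.0, 19.2 and 22.5 FPKM across the controls and 44.2, 40.3 and 37.0 FPKM under doxycycline (log2 difference 0.92, SE 0.166, adjusted p = 0.121). AT3G58140, for the phenylalanine enzyme, stood at 37.4, 28.1 and 29.8 FPKM against 61.7, 65.2 and 55.5 FPKM (log2 difference 0.92, SE 0.181, adjusted p = 0.121). SYCO ARATH (AT2G31170), for the cysteine enzyme, stood at 9.59, 10.7 and 9.56 FPKM against 20.5, 20.1 and 16.7 FPKM (log2 difference 0.87, SE 0.178, adjusted p = 0.121). These 4 genes were close to 2 times their control mean, at 2.08, 1.94, 1.91 and 1.92 times, and were called without control 1 (adjusted p of 0.00317 to 0.00889). Against control 1 alone, a single library, their log2 differences were 0.83, 0.91, 0.68 and 0.92 in the same order.

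A second set of synthetases stood at 1.36 to 1.56 times the control mean. OVA2 (AT5G49030), for the isoleucine enzyme, stood at 11.2, 11.4 and 12.9 FPKM across the controls and 19.3, 20.5 and 15.7 FPKM under doxycycline. EMB1030 (AT5G22800), for the alanine enzyme, stood at 19.5, 16.3 and 21.7 FPKM against 29.8, 33.1 and 25.7 FPKM. AT4G33760, for the aspartate enzyme, stood at 14.5, 16.9 and 14.3 FPKM against 24.9, 24.3 and 19.3 FPKM. In these 3 doxycycline library 3 was the lowest of its group and still above all controls. EMB2761 (AT2G04842), for the threonine enzyme and the most abundant synthetase transcript per length, stood at 52.9, 40.2 and 50.7 FPKM against 73.0, 73.8 and 62.9 FPKM. ERS (AT5G64050), for the glutamate enzyme, stood at 26.7, 26.4 and 24.8 FPKM against 37.0, 37.2 and 33.1 FPKM, and its controls differed by only 1.08 times. OVA6 (AT5G52520), for the proline enzyme, stood at 20.7, 17.2 and 20.8 FPKM against 27.6, 30 and 22.4 FPKM. The log2 differences of these 6 ran from 0.42 to 0.60, with adjusted p of 0.142 to 0.205. EMB2369 (AT4G04350), for the leucine enzyme, separated by a hair, at 12.1, 11.5 and 11.04 FPKM against 12.2, 15.3 and 13.4 FPKM (log2 difference 0.22, SE 0.178, adjusted p = 0.429).

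The 7 synthetase genes that overlapped were those for histidine (HRS1, AT3G46100), tyrosine (EMB2768, AT3G02660), serine (SRS, AT1G11870), methionine (OVA1, AT3G55400), valine (EMB2247, AT5G16715), lysine (OVA5, AT3G13490) and glycine (EDD1, AT3G48110). Their doxycycline means lay at 0.832 to 1.09 times the control means, with log2 differences from -0.24 to 0.12. The 18 synthetase genes thus spread from levels near or below the controls to about 2 times the control mean. Parts of HRS1 and EDD1 have near copies elsewhere (AT5G03406, 91.6% identical over 785 bases, and AT5G04625, 94.8% over 325 bases), so reads of those stretches are uncertain.

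The 24 genes for cytosolic synthetases, some of which also serve mitochondria, gave 0 higher and 6 lower without overlap, with a median of -0.39. That count of lower genes is near the background, since 25.7% of all genes lay lower and the median gene was at -0.29. The 2 genes with the largest differences are given next. TWN2 (AT1G14610), for a valine enzyme, stood at 29.4 ± 7.57 FPKM across the controls and 15.4 ± 0.728 FPKM under doxycycline (SD over 3 libraries a group), a log2 difference of -0.86 (SE 0.224, adjusted p = 0.133). AT4G26870, for an aspartate enzyme, stood at 38.7 ± 16.0 against 21.8 ± 1.35 FPKM (log2 difference -0.73). Against controls 1 to 3 in turn, the medians of the cytosolic list were 0.07, -0.92 and -0.51, and those of the 18 organelle synthetases were 0.39, 0.41 and 0.38. The median gene of the table lay at -0.0020, -0.54 and -0.30 against the same controls, so relative to it the organelle synthetases stood at 0.39, 0.96 and 0.68 and the cytosolic list at 0.07, -0.38 and -0.20. The 11 separated organelle synthetases alone had medians of 0.62, 0.78 and 0.51 on the deposited scale, and the other 7 had 0.22, -0.14 and -0.07. The 11 were picked for lying above every control, so positive medians against each control follow from the choice. After median-of-ratios scaling the medians were -0.11 for the cytosolic and 0.75 for the organelle list. The difference between the lists was not tested.

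**Figure D2:**
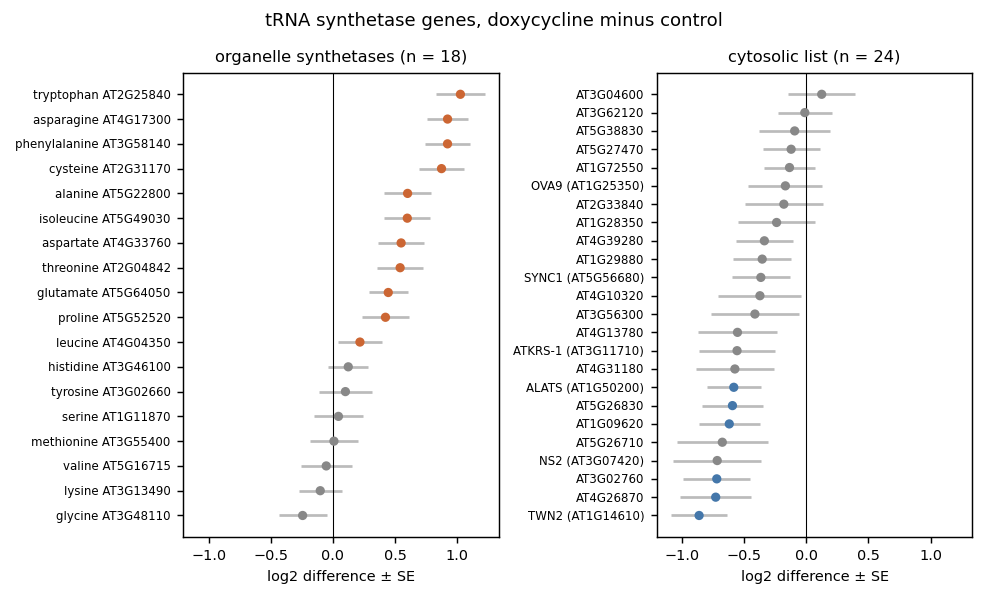
Log2 differences (doxycycline minus control, on log2(FPKM + 1), bars SE, 3 libraries a group) of 18 organelle synthetase genes, left, and 24 genes of the cytosolic list, right. Orange points are genes higher in every doxycycline library, blue ones lower in every one and grey ones overlapping: 11 are orange on the left, and 6 are blue on the right. Over all genes tested 9.59% lay higher and 25.7% lower without overlap.

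All 4 initiation factor genes separated, 2 higher (9.59% of all genes tested) and 2 lower (25.7%). Of the plastid IF3 genes, whose products keep the ribosomal subunits apart until initiation, AT4G30690 gave the largest log2 difference of any member. AT4G30690 stood at 178, 36.2 and 32.3 FPKM across controls 1 to 3 and at 189, 191 and 233 FPKM under doxycycline (log2 difference 1.75, SE 0.614, adjusted p = 0.158). Control 1 was therefore close to the doxycycline libraries and the other controls far below. Without control 1 the log2 difference was 2.54 (adjusted p = 6.78e-04), and against control 1 alone it was 0.19. The other plastid IF3 gene, AT2G24060, was more even, with 42.6, 37.5 and 33.7 FPKM across the controls and 57.6, 57.8 and 50.5 FPKM under doxycycline (log2 difference 0.53, SE 0.171, adjusted p = 0.147).

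The mitochondrial IF3 gene AT1G34360 was the clearest of the lower members, at 5.30, 8.28 and 6.17 FPKM across the controls and 3.59, 3.50 and 3.44 FPKM under doxycycline (log2 difference -0.73, SE 0.23, adjusted p = 0.144). Its doxycycline values lay within 1.04 times of each other and below each control. It was also the 1 member lower without overlap after median-of-ratios scaling. FUG1 (AT1G17220), the plastid IF2 gene, stood at 59.4, 62.3 and 64.6 FPKM against 48.3, 58.7 and 44.7 FPKM (log2 difference -0.30, SE 0.174, adjusted p = 0.288), and its sign turned to 0.026 after median-of-ratios scaling. Doxycycline library 2 nearly touched the lowest control, so the separation of FUG1 was a narrow one.

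Among the elongation genes, emb2726 (AT4G29060), for plastid EF-Ts, was the 1 of 7 to separate, at 78.2, 69.3 and 79.4 FPKM across the controls and 111, 124 and 93.7 FPKM under doxycycline (log2 difference 0.52, SE 0.183, adjusted p = 0.158). Over all genes tested 9.59% lay higher without overlap. RABE1b (AT4G20360), for plastid EF-Tu and the most abundant member per length, stood at 451, 337 and 499 FPKM against 575, 648 and 477 FPKM (log2 difference 0.41, SE 0.261, adjusted p = 0.327). Its doxycycline library 3 lay just under control 3. A long noncoding gene, AT4G20362, lies across RABE1b on the other strand at 5.03 to 8.96 FPKM; without strand its reads and those of RABE1b cannot be told apart. SCO1 (AT1G62750), for plastid EF-G, stood at 104, 130.2 and 204 FPKM against 136, 184 and 107 FPKM and did not separate (log2 difference -0.02).

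The mitochondrial elongation genes varied more between controls than between the groups. AT4G02930, for mitochondrial EF-Tu, stood at 11.5, 73.1 and 33.0 FPKM across the controls and at 30.8, 31.6 and 31.2 FPKM under doxycycline. The controls spanned 6.35 times and the doxycycline libraries 1.03 times. AT4G11120, for mitochondrial EF-Ts, stood at 5.99, 17.98 and 12.1 FPKM against 12.9, 13.3 and 12.2 FPKM. The mitochondrial EF-G genes AT1G45332 and AT2G45030 are 96.7% identical over 2463 bases, so the split of reads between them is uncertain, and both followed the same order, with 4.35, 17.2 and 10.5 and 6.01, 23.8 and 15.6 FPKM across the controls. With doxycycline they stood at 6.42, 7.39 and 6.89 FPKM and 10.6, 9.67 and 10.2 FPKM. In 6 of 6 mitochondrial factor genes control 1 was the lowest control and control 2 the highest, which was so for 1 of 12 plastid factor genes and 44.1% of all genes tested. Without control 1, AT1G45332 and AT2G45030 were called lower (log2 differences -0.87 and -0.86, adjusted p = 0.0245 and 0.0181). In that fit 35.6% of all genes tested were called lower and the median gene lay at -0.44, so these calls do not set the genes apart. Against control 1 alone, a single library, the log2 differences of AT1G45332, AT2G45030, AT4G02930 and AT4G11120 were 0.56, 0.67, 1.36 and 0.98. Every doxycycline library lay above control 1 in 5 of the 6 mitochondrial factor genes (37.0% of all genes tested) and below control 2 in 6 of 6 (68.9% of all genes tested), so the direction changed with the control used.

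The GTPases related to elongation factors did not separate. AT5G08650, for the plastid protein of the LepA type, which acts on stalled ribosomes in bacteria, stood at 47.5, 39.3 and 51.1 FPKM across the controls and 54.7, 66.5 and 49.3 FPKM under doxycycline. AT5G39900, a gene of that type assigned to mitochondria, was the least abundant member, at 0.757, 3.09 and 2.18 FPKM against 1.86, 1.23 and 1.74 FPKM. SVR3 (AT5G13650), for the plastid TypA protein, stood at 159, 256 and 306 FPKM against 185, 219 and 169 FPKM (log2 difference -0.29, SE 0.285, adjusted p = 0.514). SVR3 was called lower without control 1 (log2 difference -0.56, adjusted p = 0.0489), where 35.6% of all genes were and the median gene lay at -0.44. Its sign changed to 0.0455 after median-of-ratios scaling and to 0.26 against control 1 alone.

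Within each library, the ratio of a plastid factor to its mitochondrial counterpart does not depend on the factor by which that library is scaled. The plastid to mitochondrial IF3 ratio, with both plastid genes summed, was 41.6, 8.91 and 10.7 in controls 1 to 3 and 68.6, 71.1 and 82.3 with doxycycline. This ratio was higher in 3 of 3 doxycycline libraries than in any control, by 2.22 on the log2 scale (exact two-sided permutation test, n = 3 each, p = 0.1, adjusted over the 6 ratios 0.3). With 3 against 3 libraries 0.1 is the smallest p possible. The ratio of the peptide deformylases PDF1B to PDF1A also separated, at 1.097, 0.558 and 1.07 in controls and 1.53, 1.79 and 1.39 with doxycycline (log2 difference 0.84, exact p = 0.1, adjusted 0.3). The EF-Tu ratio was 39.1, 4.61 and 15.1 in controls and 18.6, 20.5 and 15.3 with doxycycline. For EF-Tu, EF-Ts, EF-G and LepA the doxycycline ratios lay within the range of the controls or overlapped it (exact p of 0.5 to 0.7, n = 3 each), and the signs of these 4 differences turned when control 2 was left out.

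**Figure D3:**
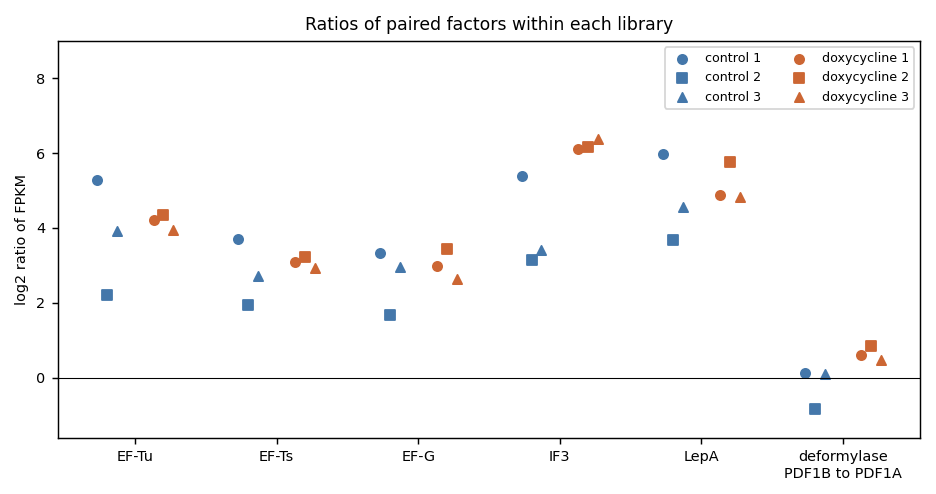
Log2 ratio of FPKM within each library (blue, control; orange, doxycycline; the marker shape gives the library number), as plastid to mitochondrial gene for EF-Tu, EF-Ts, EF-G, IF3 and LepA and as PDF1B to PDF1A for the deformylases. The doxycycline points lie above all control points for IF3 and for the deformylases, and the groups overlap elsewhere.

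Among the recycling and release genes, 3 of 4 stood higher without overlap (9.59% of all genes tested). RRF (AT3G63190), for the factor that splits the ribosome from the finished message, stood at 95.9, 46.0 and 65.4 FPKM across controls 1 to 3 and 166, 164 and 152 FPKM under doxycycline (log2 difference 1.27, SE 0.276, adjusted p = 0.126). The lowest doxycycline library was above control 1, the highest control, by more than 1.5 times. APG3 (AT3G62910), for plastid release factor 1, stood at 29.6, 21.2 and 23.6 FPKM against 46.7, 52.8 and 45.2 FPKM (log2 difference 0.94, SE 0.187, adjusted p = 0.121). Both genes were called without control 1 (log2 differences 1.53 and 1.07, adjusted p = 0.00248 and 0.00322). Against control 1 alone, a single library, their log2 differences were 0.74 and 0.68. HCF109 (AT5G36170), for plastid release factor 2, separated by less, at 57.0, 51.9 and 50.6 FPKM against 66.3, 64.8 and 64.4 FPKM (log2 difference 0.29, SE 0.154, adjusted p = 0.258). PrfB3 (AT3G57190), whose product resembles release factor 2 and is known for stabilizing a plastid message, overlapped, at 9.02, 18.3 and 12.9 FPKM against 9.84, 11.7 and 9.56 FPKM.

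All 5 genes for N-terminal processing stood higher in every doxycycline library, where 9.59% of all genes tested did so. MAP1D (AT4G37040), whose product removes the first methionine in organelles, had the lowest p and the widest distance between groups of the 41 members. MAP1D stood at 27.1, 23.4 and 27.2 FPKM across the controls and 85.2, 85.4 and 66.9 FPKM under doxycycline, 3.05 times the control mean (log2 difference 1.57, SE 0.179, adjusted p = 0.121). It was called without control 1 (log2 difference 1.600, adjusted p = 0.00185). Against control 1 alone, a single library, the log2 difference of MAP1D was 1.501. The neighbouring gene AT4G37050, which overlaps its end on the other strand, was at no more than 0.352 FPKM in any library. MAP1D held 3 site II elements in the upstream bases shown, and PDF1B, of the same role, held none. The gene AT1G13270, with the symbol MAP1C in the reference and a product line naming methionine aminopeptidase 1B, stood at 24.6, 8.72 and 10.5 FPKM against 33.3, 34.6 and 30.04 FPKM (log2 difference 1.24, SE 0.361, adjusted p = 0.138). Over 391 bases it is 80.3% identical to AT3G25740, another gene of the family. Its control 1 was again the nearest to the doxycycline libraries, and against control 1 alone the log2 difference was 0.39. The reverse holds for the names of AT3G25740 (symbol MAP1B, product 1C), which stood at 10.6, 10.11 and 12.01 FPKM against 13.3, 12.6 and 13.0 FPKM (log2 difference 0.24, SE 0.173, adjusted p = 0.385). PDF1B (AT5G14660), for the deformylase of plastids and mitochondria, stood at 24.4, 13.1 and 22.2 FPKM against 44.2, 43.9 and 37.9 FPKM (log2 difference 1.08, SE 0.254, adjusted p = 0.128). PDF1A (AT1G15390), for the mitochondrial deformylase, stood at 22.2, 23.5 and 20.6 FPKM against 28.9, 24.6 and 27.3 FPKM (log2 difference 0.27, SE 0.164, adjusted p = 0.302). The gene AT1G15400 overlaps 176 bases of PDF1A on the other strand at 64.7 to 110.7 FPKM, more than PDF1A itself, so reads in that stretch are uncertain and with them the deformylase ratio. Of these 5 genes, 1 deformylase gene and 2 aminopeptidase genes stood at over 2 times their control mean. The others, PDF1A and AT3G25740, stood at 1.22 and 1.19 times. Against control 1 alone, a single library, the log2 difference of PDF1B was 0.76. The enzymes act in sequence on new proteins, but whether their genes respond together was not tested.

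**Figure D4:**
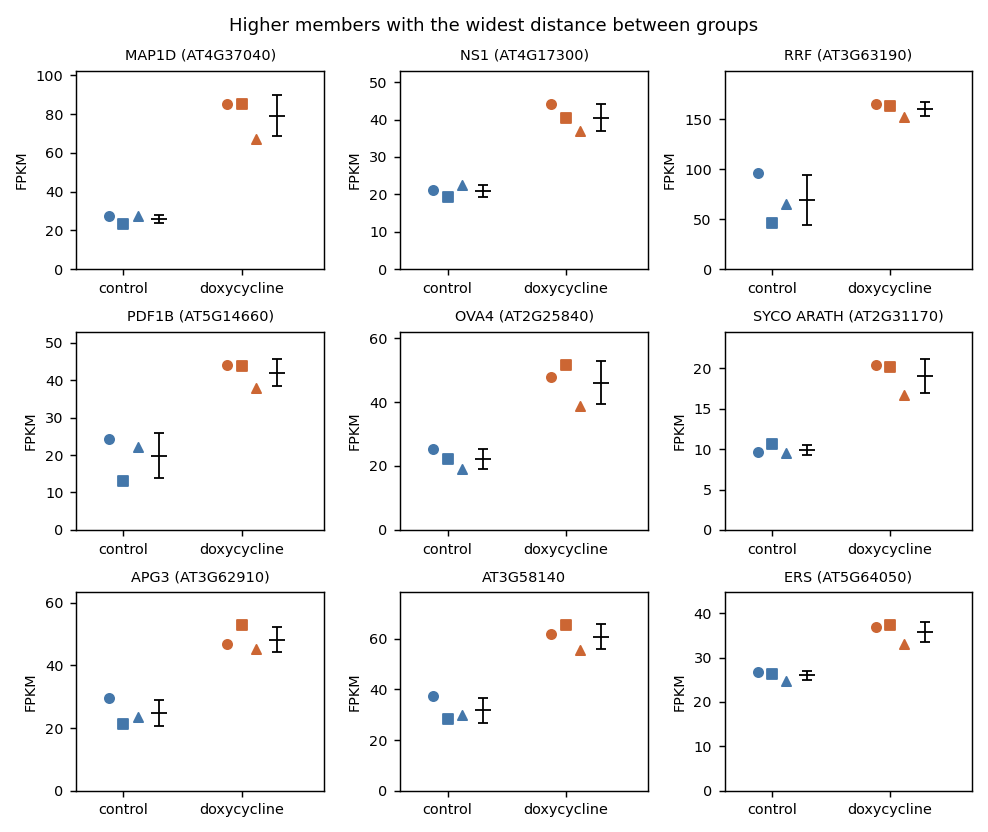
FPKM in each library for the 9 members, of those higher without overlap, whose groups lie farthest apart on the log2 scale (blue, control; orange, doxycycline; the marker shape gives the library number; bars, mean ± SD, n = 3). In every panel the lowest orange point is above the highest blue point, as for MAP1D at 66.9 against 27.2 FPKM.

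A further 18 genes of organelle translation outside the 41 gave 7 higher and 3 lower without overlap, with a median of 0.09. Over all genes tested 9.59% lay higher and 25.7% lower, with a median of -0.29, so the lower count was not above the background. The largest differences were those of AT5G24490, for a plastid protein that binds resting ribosomes, at 506, 71.2 and 100.1 FPKM across the controls and 529, 525 and 591 FPKM under doxycycline (log2 difference 1.83, SE 0.68, adjusted p = 0.169), and of AT3G08740, for a plastid EF-P protein, at 142, 58.3 and 89.2 FPKM against 266, 251 and 212 FPKM (log2 difference 1.41, SE 0.328, adjusted p = 0.128). In AT5G24490 control 1 lay close to the doxycycline libraries. Some others are named after their values were seen. Plant organelles lack a glutaminyl-tRNA synthetase and make glutamine-loaded tRNA with a 3-subunit amidotransferase, and its genes AT3G25660, GATB (AT1G48520) and AT4G32915 all stood higher without overlap, with log2 differences of 0.44, 0.68 and 0.42. The 3 lower genes were AT4G11160, AT2G47020 and AT1G56350, for proteins of the IF2, release factor 1 and release factor 2 types that are assigned to mitochondria, at -0.97, -0.48 and -0.62. AT2G47020 was scarce, at 0.817 to 2.90 FPKM over the libraries. AT3G01800, for a ribosome recycling factor of the same list, overlapped (log2 difference -0.27). Among the members, the 6 mitochondrial factor genes gave 0 higher and 1 lower with a median of -0.24, and the 12 plastid ones 6 higher and 1 lower with a median of 0.35. The mitochondrial median was thus near that of all genes tested (-0.29), and the lower count was not above the 25.7% of all genes. Against controls 1 to 3 those medians were 0.62, -1.097 and -0.42 for mitochondrial and 0.29, 0.53 and 0.27 for plastid factors, so the order of the 2 kinds was reversed against control 1.

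**Figure D5:**
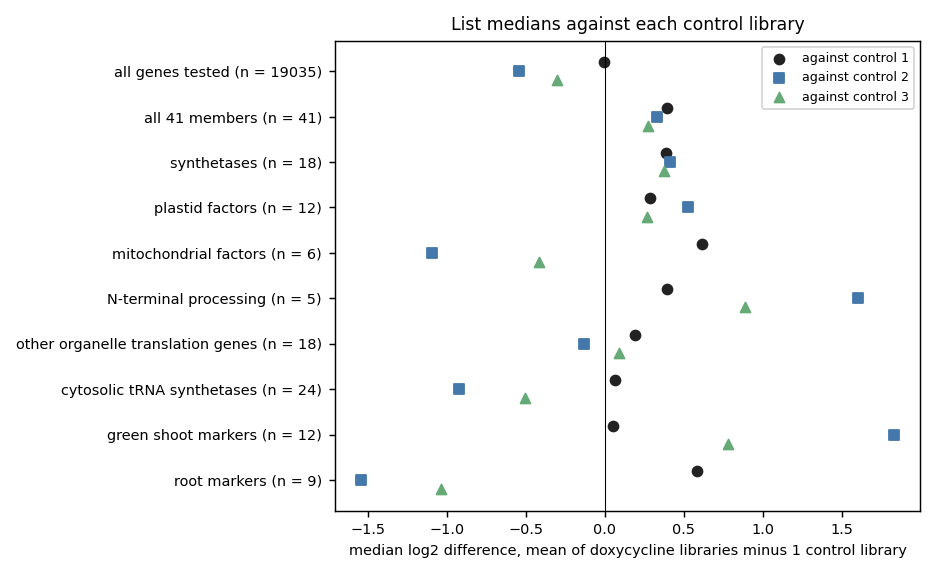
Median log2 difference between the doxycycline mean and each single control library (marker and colour give the control) for gene lists, with the number of genes tested. The 41 members lie between 0.28 and 0.39 against each control, whereas mitochondrial factors, cytosolic synthetases and root markers lie on both sides of 0. That range holds on the deposited scale, since relative to the median gene the members lie at 0.39, 0.87 and 0.58 against controls 1 to 3.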

How the data were processed

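Per the labels' protocols, seedling RNA was taken up in TRIzol, and the library kit was VAHTS Universal V6. The authors deposited 1 table of FPKM values with 1 column per library. Per the submitters' processing notes, TopHat2 2.1.0, Cufflinks 2.2.1 and the TAIR10 genome were used, with no role or order given. Strand handling is not given in the sources used here. Since the table's header names no unit, FPKM was inferred from the values and the tools named.

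As FPKM is relative to a library's total, abundant genes that change move all others. The smallest values of single-model genes put the depth at an estimated 18600000 to 21900000 fragments, but only 51.9% to 62.4% of low values came out whole within 0.08 reads, where chance gives 16%. Hence no count model was run, and the depth is a description.

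Values were tested as log2(FPKM + 1), which understates the change of low genes, for 19035 of 33532 genes (mean over the libraries at or above 1 FPKM), with limma 3.58.1 in R 4.3.3, with a variance trend, no covariate, two-sided, Benjamini-Hochberg over all genes and a threshold of 0.05. Ratios within libraries were compared by exact permutation. Names came from RefSeq TAIR10.1, which holds all 41 members. Overlap of groups means that the lowest library of one was not above the highest of the other. Transcript similarity was found with BLAST 2.17.0, for alignments of at least 300 bases and 80% identity. Every member is named, and values in each library are given at least for those that do not overlap and for the most abundant of each role. The upstream sequence of 1 further member is not reported here. The members and lists were chosen with earlier results of these data known. Alternatives were a pseudocount of 0.1, no filter, a minimum mean of 5 FPKM, quantile normalization, scaling by median of ratios, robust variances, a replicate block, each library left out and control 1 as the only control.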

Additional observations from a re-analysis of the deposited data

How the results depend on the processing

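The count of members higher without overlap was 22 to 26 when each library was left out in turn (10.5% to 15.9% of all genes tested). It was 28 after median-of-ratios scaling (18.0%), 26 after quantile normalization (17.2%) and 37 with control 1 as the only control (37.0%). Those lower were 2 to 8 over the libraries left out (28.0% to 53.0% of all genes tested), with 8 without control 1 (53.0%). There was 1 after median-of-ratios scaling (17.2%) and 1 after quantile normalization (16.7%). The median member difference of 0.29 ran from 0.29 to 0.32 over the libraries left out and was 0.62 after median-of-ratios scaling, 0.50 after quantile normalization and 0.39 with control 1 as the only control. Over all genes limma called 0 to 1860 higher and 0 to 6777 lower when libraries were left out, and 1290 higher and 904 lower with control 1 as the only control. Among members 0 to 16 were called higher and 0 to 4 lower when libraries were left out, with all calls made without control 1, and 11 were called higher with control 1 as the only control. Leaving out control 3 gave 2 calls over all genes, both lower and neither a member. Of the 11 members with a negative difference 8 became positive after median-of-ratios scaling, and 0 of the 30 positive ones became negative. That scaling moved the median gene from -0.29 to 0.0012, so a general rise of the differences was built into it. The direction of these sign changes therefore says nothing about how firm the positive differences are. Among the 8, FUG1 turned to 0.026 and SVR3 to 0.0455, and SVR3 was at 0.26 with control 1 as the only control. The others, EDD1, OVA5, EMB2247, SCO1, PrfB3 and AT5G39900, overlapped on the deposited scale. Why the libraries needed different scaling, and why SVR3 turned with control 1 as the only control, was not tested. Left-out libraries moved the log2 ratio differences over the ranges -0.43 to 1.11 for EF-Tu, -0.12 to 0.76 for EF-Ts, -0.13 to 0.71 for EF-G, 1.80 to 2.92 for IF3, -0.11 to 1.04 for LepA and 0.52 to 1.01 for the deformylases.

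Same-numbered libraries did not deviate together (correlations of -0.00158, -0.0144 and -0.137), so no pairing by number was seen. With 3 libraries a group, each centred on its group mean, these correlations cannot exclude one. With the replicate block 0 genes passed, as without it, the counts without overlap were the same by construction, and the mean IF3 difference remained 2.22. Count-based tests listed for a count table were not run, since the table holds FPKM.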

Other observations

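The third doxycycline library was the lowest of its group in 32 of the 41 members, among them 16 of 18 synthetases and 11 of 12 plastid factors, where 27.5% of all genes tested showed that order. Without that library 26 members stood higher without overlap, as did 11.1% of all genes tested. The members' summed FPKM was 0.228% to 0.264% of the table's sum in the controls and 0.269% to 0.328% with doxycycline, with the third doxycycline library at 0.269%.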
